A study of Mus musculus with 8 samples.

Results

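The genes described here are 9 germline genes named as targets of the repressor E2F6 (Stag3, Smc1b, Slc25a31, Tex101, Mael, Ddx4, Tdrkh, Stk31 and Sycp3) and the X-linked homeobox gene Rhox5, 10 genes of the 54532 listed for these libraries. The 9 germline genes were chosen by their known repression by E2F6, with earlier results of these data known. Rhox5 was chosen for its strong fall in shMCT-1 cells, so its difference between backgrounds is given as a description without a test. Only Rhox5 was expressed: the other 9 genes were below 1 CPM (read counts scaled to the total of each library) in every library, in both backgrounds. Reads of E2f6 itself were 0 in all shMCT-1 libraries. Mga, which encodes a partner of E2F6 in its repressor complex, had 1 count over the scramble libraries and 1900 over the shMCT-1 libraries. A link of either to the 9 genes was not tested.

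The cells were 4T1, a mouse triple-negative breast cancer line of epithelial origin. They carried either a scramble shRNA or 1 shRNA against MCT-1 (gene Mcts1), both stably transfected and kept under 6 µg/ml puromycin, and were treated for 48 h with IgG or with 100 ng/ml of an antibody against the mouse IL-6 receptor (anti-IL-6R). The 2 backgrounds and 2 treatments give 4 groups, such as scramble + IgG or shMCT-1 + anti-IL-6R, each with 2 mRNA-seq libraries, 8 in all. No source says whether the 2 libraries of a group came from separate cultures or how many clones founded each line, so p-values measure only the spread between these libraries, and a difference between the backgrounds cannot be told apart from a difference between the 2 stable lines.

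E2F6 is a member of the E2F family that lacks the activation domain of its relatives and represses transcription. With its partner DP1 it belongs to a Polycomb repressive complex, PRC1.6, which also holds the DNA-binding pair MGA and MAX, L3MBTL2, PCGF6 and RING2. The complex is best known for silencing meiosis and germ cell genes in cells outside the germ line, where DNA methylation of their CG-rich promoters keeps them off. E2F6 reads an E2F site in the promoters of its targets, and MGA with MAX reads an E-box. Rhox5, the founding member of the reproductive homeobox cluster on the X chromosome, is expressed in Sertoli cells, epididymis, placenta and many tumour lines and is itself known to be held down by DNA methylation.

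The promoters of 5 of the 9 germline genes hold both kinds of site, and for that reason these 5 are shown. In the RefSeq windows (build GRCm38.p6) from 250 bases before to 50 bases after each start, which matched all 10 genes, the E2F6 core TCCCGC was searched on both strands and the E-box CACGTG, which reads the same on both, with stretches shared by the 2 motifs counted for each. The core was found in 6 of the 10 genes (Stag3, Smc1b, Slc25a31, Mael, Ddx4 and Sycp3) and in 19.98% of all 32851 windows. The E-box was found in 6 (Stag3, Slc25a31, Mael, Ddx4, Stk31 and Sycp3), against 7.15% of all windows. Both motifs stood in 5 genes, against 1.99% of all windows. These are matches of letters and not measured binding. All windows are not a like background: both motifs hold a CG, and the 9 germline genes have CG-rich windows (values below). The 9 were also chosen as E2F6 targets. The 5 promoters, from 250 bases before to 30 bases after the start on the strand of the gene, read as follows, with the 2 motifs in capitals (GCGGGA is the core on the opposite strand).
Stag3 (chr5:138280259-138280538, plus strand): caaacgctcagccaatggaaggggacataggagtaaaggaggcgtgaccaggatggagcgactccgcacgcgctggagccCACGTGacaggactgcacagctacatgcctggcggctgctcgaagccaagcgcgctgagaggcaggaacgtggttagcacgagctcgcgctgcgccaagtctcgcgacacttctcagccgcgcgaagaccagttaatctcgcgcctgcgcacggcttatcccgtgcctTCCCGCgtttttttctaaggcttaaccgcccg
Sycp3 (chr10:88459337-88459616, plus strand): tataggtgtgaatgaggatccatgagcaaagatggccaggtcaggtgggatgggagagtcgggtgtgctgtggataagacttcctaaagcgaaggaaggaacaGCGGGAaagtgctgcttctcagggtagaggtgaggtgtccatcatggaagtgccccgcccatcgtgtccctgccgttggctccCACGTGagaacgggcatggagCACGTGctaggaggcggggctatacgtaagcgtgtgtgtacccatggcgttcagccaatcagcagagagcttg
Mael (chr1:166238715-166238994, minus strand): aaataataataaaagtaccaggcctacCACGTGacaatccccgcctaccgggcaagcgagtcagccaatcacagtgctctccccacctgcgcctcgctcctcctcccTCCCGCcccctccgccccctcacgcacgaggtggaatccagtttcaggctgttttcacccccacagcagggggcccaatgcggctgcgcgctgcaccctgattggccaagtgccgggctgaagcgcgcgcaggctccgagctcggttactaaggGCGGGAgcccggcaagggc
Ddx4 (chr13:112652281-112652560, minus strand): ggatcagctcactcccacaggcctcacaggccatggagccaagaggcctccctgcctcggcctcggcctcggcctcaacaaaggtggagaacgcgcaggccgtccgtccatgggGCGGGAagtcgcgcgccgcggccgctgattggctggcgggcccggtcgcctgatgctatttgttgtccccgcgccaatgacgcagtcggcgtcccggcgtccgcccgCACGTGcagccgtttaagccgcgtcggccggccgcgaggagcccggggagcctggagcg
Slc25a31 (chr3:40708621-40708900, plus strand): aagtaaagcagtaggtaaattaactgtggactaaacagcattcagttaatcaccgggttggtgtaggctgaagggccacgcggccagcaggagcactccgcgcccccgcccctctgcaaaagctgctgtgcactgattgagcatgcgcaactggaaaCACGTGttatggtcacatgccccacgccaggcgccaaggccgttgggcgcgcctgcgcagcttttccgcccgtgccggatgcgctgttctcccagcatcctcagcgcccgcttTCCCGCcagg

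In Stag3 the core began 2 bases upstream of the RefSeq start and the E-box 170 bases upstream. Ddx4 had the core 136 and the E-box 29 bases upstream, and Sycp3 had the core 147 bases upstream and E-boxes at 64 and 43 bases. Mael had the core at 143 bases upstream and again past the start. In Slc25a31 the E-box lay 93 bases upstream and the core lay past the start. Neither motif was in the windows of Rhox5, Tex101 or Tdrkh. The 9 germline genes held between 15 and 38 CG dinucleotides per window, against a median of 7 over all windows and 5 in Rhox5. For Rhox5 the RefSeq start lies 50234 bases from the start in the GENCODE annotation, and for Tex101 4625 bases, so their windows may not cover the start that these cells use, and for Rhox5 the window is not shown. For Stag3 the 2 starts differ by 269 bases, which puts the GENCODE start outside the window, and for Ddx4 by 165 bases, so the distances above hold for the RefSeq start alone.

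Library totals ran from 24100084 to 33063570 counts in scramble cells and from 19839299 to 23448587 in shMCT-1 cells, so 3 counts, taken here as the limit that a count of 0 allows, correspond to 0.0907 to 0.151 CPM in a single library. Mitochondrial genes took 1.97% to 2.52% of counts in scramble and 0.84% to 1.53% in shMCT-1. The library scramble + IgG replicate 2 lay farthest from the other scramble libraries, with a standard deviation of log2 differences over genes of 0.35 against 0.23 to 0.24 for the other 3. Of 6 mammary epithelial markers, Krt8 stood at 1031 to 1429 CPM and Krt18 at 622 to 959 CPM, whereas Cldn7 was at 0.0458 CPM or less. The summed level of that list was 2325 to 2477 CPM in scramble and 3073 to 3331 CPM in shMCT-1, and Epcam rose from 4.37 to 51.3 CPM. Of 6 markers of the somatic cells of the testis, Wt1, Cyp17a1 and Insl3 were at 0.336 CPM or less. Amh stood at 0.256 to 0.872 CPM in scramble and 0.595 to 1.16 CPM in shMCT-1. The list summed to 10.3 to 13.4 CPM in scramble and 16.5 to 17.9 CPM in shMCT-1, carried by Dhh and Star. Dhh was called higher in shMCT-1, at 5.68 to 8.23 CPM in scramble and 11.3 to 12.6 CPM in shMCT-1, and Star was not called. Of 6 leukocyte and endothelial markers, Ptprc, Cd3e, Lyz2 and Pecam1 were at 0.458 CPM or less and the list summed to 2.85 to 3.73 and 7.28 to 8.33 CPM. Cd68 was called higher in shMCT-1, at 2.66 to 3.34 CPM in scramble and 5.42 to 7.51 CPM in shMCT-1. Cdh5 stood at 0 to 0.124 CPM and 0.454 to 1.46 CPM. It is given as levels only, since it passed the filter (over 1 CPM in 2 or more libraries) through shMCT-1 alone. The part of these shifts in the results below was not tested. In bulk RNA, fewer cells of a type and less RNA per cell cannot be told apart.

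The silenced gene and the repressor were examined first. Mcts1 had 15.4 and 11.8 CPM in the scramble + IgG libraries, 12.8 and 13.5 CPM in scramble + anti-IL-6R, 6.32 and 6.18 CPM in shMCT-1 + IgG, and 6.70 and 4.92 CPM in shMCT-1 + anti-IL-6R. All shMCT-1 libraries lay below all scramble libraries, a log2 fold change averaged over both treatments of −1.10 (SE 0.12, edgeR quasi-likelihood adjusted p = 3.34e-05). That averaged contrast called 67.9% of the 12704 tested genes, 34.4% higher and 33.5% lower in shMCT-1. Within each treatment a majority was also called, 54.4% within IgG and 54.3% within anti-IL-6R. A call in these contrasts is therefore common.

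E2f6 (chromosome 12: 16810963-16839742, plus strand, GRCm38) was read at 26.3 and 23.1 CPM in scramble + IgG and at 23.7 and 26.4 CPM in scramble + anti-IL-6R, and at 0 counts in each of the 4 shMCT-1 libraries. Against 3 counts over the 4 shMCT-1 libraries together, its level was at least 724-fold lower in shMCT-1. E2f6 passed the filter through its scramble libraries alone, so this is given without a test. Mga (chromosome 2: 119897228-119969581, plus strand), which encodes the large scaffold of PRC1.6, had the opposite pattern. It had 1 count in scramble + IgG replicate 1 and 0 in the other 3 scramble libraries, and 21.2, 23.9, 16.8 and 24.7 CPM in the shMCT-1 libraries. The ratio of its summed CPM, shMCT-1 to scramble, was 2529 with an exact 95% counting interval of 453 to 99950. Mga passed the filter through its shMCT-1 libraries alone, so it too is given without a test. In all, 5 genes had at least 1 CPM in each scramble library and 0 counts in all shMCT-1 libraries: E2f6, Gm29100, Kcna1, Pcdh17 and Pet117, the last 4 named after their values were seen. E2f6 was the only 1 of these 5 above 20 CPM in each scramble library. That cut was not planned and lies close below the lowest scramble value of E2f6, 23.1 CPM. With at most 3 counts over the shMCT-1 libraries together in place of 0, there were 12 such genes. In the other direction 38 genes, Mga among them, had at least 1 CPM in each shMCT-1 library and at most 3 counts over the scramble libraries together.

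**Figure D1:**
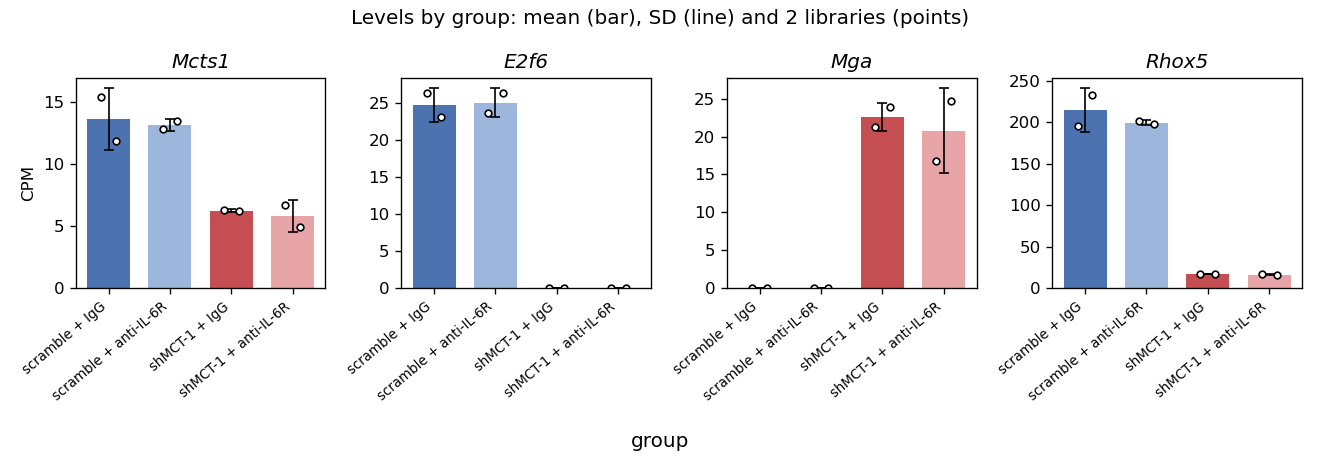
CPM of Mcts1, E2f6, Mga and Rhox5 in the 4 groups, each panel on its own linear axis from 0; bars are means, lines SDs and points the 2 libraries of a group. E2f6 stands at 23.1 to 26.4 CPM in scramble and at 0 in shMCT-1, Mga the other way round, and Rhox5 stands at 196 to 233 CPM in scramble and 15.5 to 16.9 CPM in shMCT-1.

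All 14 genes of the E2F6 and PRC1.6 list were tested, and 4 were called higher in shMCT-1 and 3 lower, against 34.4% and 33.5% of all those tested, and 7 were not called, with a median log2 fold change of 0.04 against 0.01 over all tested genes, both with E2f6 and Mga at their fitted values and with E2f6 at its bound and Mga at its ratio of counts. Mga and E2f6 are among these calls, but each passed the filter only through the background where it was high. The higher ones beside Mga were Hdac1 (log2 fold change 0.36), Cbx3 (0.26) and Yaf2 (0.21), and the lower ones beside E2f6 were Wdr5 (−0.36) and Rybp (−0.23). L3mbtl2, Pcgf6, Rnf2, Ring1, Max, Tfdp1 and Hdac2 did not pass the test, with values from −0.18 to 0.18. Max, the partner of MGA, stood at 87.2 to 106 CPM in scramble and 84.4 to 92.1 CPM in shMCT-1.

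Of 10 genes for DNA methylation and H3K9 methylation enzymes, most of which write these marks or oxidise methylcytosine, 9 were tested. Of these, 7 were called lower in shMCT-1 and 0 higher, against 33.5% and 34.4% of all those tested, and the median log2 fold change was −0.63. Dnmt3a, a de novo DNA methyltransferase, went from 66.4 to 73.7 CPM in scramble to 21.7 to 28.5 CPM in shMCT-1 (log2 fold change −1.45, SE 0.08, edgeR adjusted p = 3.87e-07). Tet2, which oxidises methylcytosine, went from 17.9 to 19.9 CPM to 6.25 to 9.77 CPM (−1.19, SE 0.11, edgeR adjusted p = 8.91e-06). Dnmt3b (−0.85), Tet3 (−0.87), Ehmt1 (−0.63), Uhrf1 (−0.31) and the maintenance enzyme Dnmt1 (−0.28) also fell. Setdb1 (0.08) and Ehmt2 (0.09) did not pass the test, and Tet1 stayed at 0.0853 CPM or less. The genes that fell thus included both writers of DNA methylation (Dnmt3a, Dnmt3b) and enzymes of its removal (Tet2, Tet3).

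**Figure D2:**
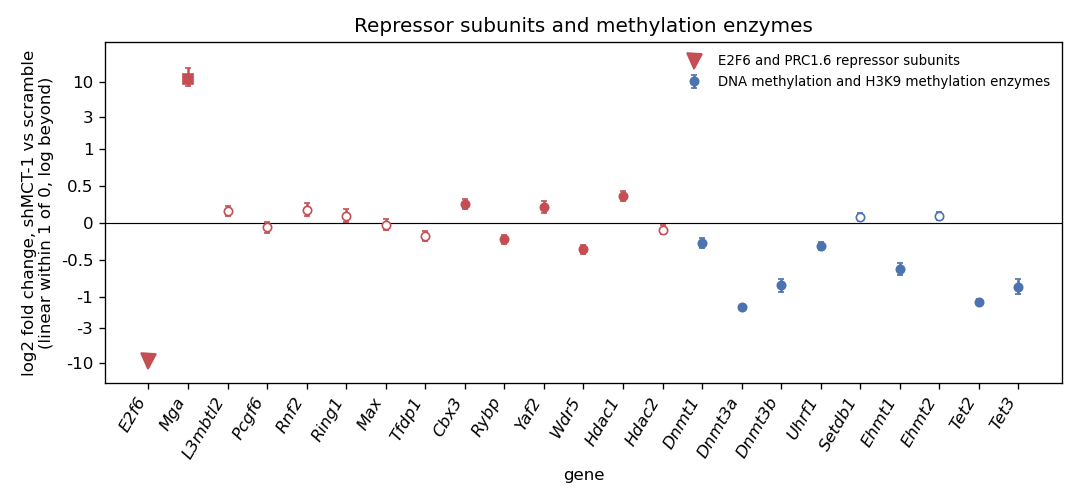
Difference of shMCT-1 from scramble as log2 fold change, averaged over both treatments, on an axis linear within 1 of 0 and logarithmic beyond; error bars are SEs, filled circles passed an adjusted p of 0.05 and open circles did not. The triangle is the lower bound for the fall of E2f6 against 3 counts, the square the ratio of counts of Mga with its 95% interval, and all other subunits of the repressor lie between −0.36 and 0.36.

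Rhox5 (chromosome X: 37804842-37808876, plus strand, 754 bases of exon) was the only 1 of the 10 genes to pass the filter, which asked for over 1 CPM in 2 or more libraries. It had 196 and 233 CPM in scramble + IgG, 202 and 198 CPM in scramble + anti-IL-6R, 16.4 and 16.9 CPM in shMCT-1 + IgG, and 16.4 and 15.5 CPM in shMCT-1 + anti-IL-6R. All scramble libraries lay above all shMCT-1 libraries. The 2 treatments overlapped in scramble, whereas in shMCT-1 both anti-IL-6R libraries lay just below both IgG libraries. Group means were 215 ± 26.5, 200 ± 2.63, 16.7 ± 0.323 and 15.9 ± 0.606 CPM (SD, n = 2). In shMCT-1, 7.87% of the scramble level was left.

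As a description of the values that chose it, the log2 fold change of Rhox5 was −3.65 (SE 0.12) within IgG, −3.59 (SE 0.12) within anti-IL-6R and −3.62 (SE 0.08) averaged over both treatments, a level 12.3-fold lower. Of the 12704 tested genes, 64 had a lower averaged value. Of 359 tested genes on chromosome X, 1 did, the ribosomal pseudogene Rpl7a-ps11 (−5.76, SE 2.36), which was named after its value was seen and is a near copy of a highly expressed gene. The median log2 fold change of these 359 genes was −0.009. Per kilobase of exon, Rhox5 mRNA stood at 275 CPM per kb in scramble, where 154 of 12695 tested genes with an annotated length were higher, and at 21.6 CPM per kb in shMCT-1, where 2475 were higher.

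The response of Rhox5 to the antibody was not used to choose it and could be tested. In scramble cells the log2 fold change of anti-IL-6R against IgG was −0.11 (SE 0.10, edgeR quasi-likelihood adjusted p = 1.0), and 0.0% of the tested genes were called in that comparison. In shMCT-1 cells it was −0.06 (SE 0.12, edgeR adjusted p = 1.0), again with 0.0% of genes called. The interaction, the difference of these 2 responses, was 0.05 (SE 0.15, edgeR adjusted p = 1.0), with 0.0% called. At an unadjusted p of 0.05, 166, 505 and 315 of the 12704 genes passed in the 3 comparisons, and DESeq2 called 0, 11 and 6. Without scramble + IgG replicate 2 the first value changed sign to 0.04 and the interaction to −0.10, so no direction can be read from either.

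The 9 germline genes are described by role. Among the genes for meiotic chromosome structure, Stag3 and Smc1b encode the meiosis-specific subunits of cohesin and Sycp3 a component of the axis of the synaptonemal complex. Stag3 had 2 counts in scramble + anti-IL-6R replicate 1, 2 and 1 counts in the shMCT-1 + IgG libraries and 0 elsewhere. Smc1b had 0 counts in all 8 libraries, which allows a level of up to 0.0148 CPM over the 8 together. Sycp3 had 2.11, 1.04, 1.23 and 1.07 estimated counts in the scramble libraries and 0, 1.11, 0 and 2.49 in the shMCT-1 libraries. None of the 3 reached 0.12 CPM in any library. Sycp3 lies within the span of Chpt1 on the opposite strand, which stood at 8.27 to 17.1 CPM, so reads of the 2 genes may have been split between them by the counting.

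The genes of the piRNA pathway, which silences transposons in germ cells, were Mael, Ddx4 (the helicase Vasa) and Tdrkh, a Tudor protein that binds PIWI proteins at mitochondria. Mael had 0 counts in all 8 libraries, with the same limit of 0.0148 CPM. Ddx4 had 1, 0, 2 and 1 counts in the scramble libraries and 0 in each shMCT-1 library. Tdrkh had the most counts of the 9, not scaled to its long exons, with 4, 4, 6 and 3 counts in scramble and 2, 3, 3 and 1 in shMCT-1. Its level was 0.149 ± 0.043 CPM in scramble and 0.104 ± 0.0461 CPM in shMCT-1 (SD, n = 4), and the backgrounds overlapped. Tdrkh overlaps in position with Oaz3 on the opposite strand, at 0.046 to 0.26 CPM, so some of its counts may belong to that gene.

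Of the remaining 3, Slc25a31 encodes the ADP/ATP carrier of male germ cells and had 0 counts in all 8 libraries. Tex101, a glycoprotein of the germ cell surface, had 0, 1, 0 and 2 counts in scramble and 2, 1, 4 and 1 in shMCT-1, at most 0.202 CPM. Stk31, a kinase-like protein of spermatogenic cells, had 1 count in scramble + IgG replicate 1 and 0 elsewhere. Stk31 overlaps in position with Gm17060 on the opposite strand, at 0.092 to 0.355 CPM, so that count may belong to Gm17060. Summed over the 9 genes, the libraries held 0.214 to 0.359 CPM in scramble and 0.204 to 0.353 CPM in shMCT-1.

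**Figure D3:**
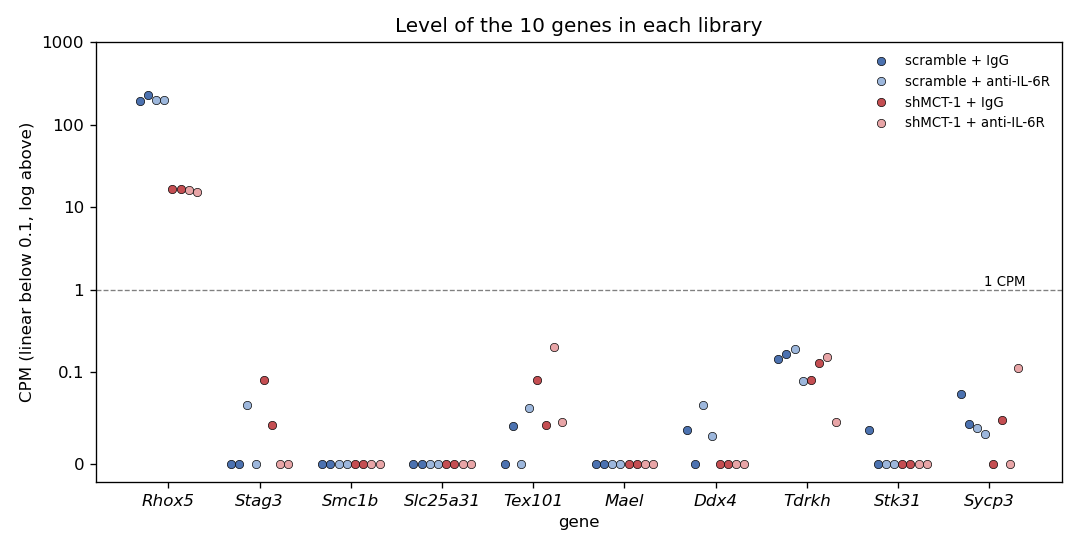
CPM of each of the 10 genes in the 8 libraries, coloured by group, on an axis linear below 0.1 CPM and logarithmic above; the dashed line is 1 CPM. Rhox5 stands above the line in all libraries, and the other 9 genes lie at 0.202 CPM or less.

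Since none of the 9 passed the filter, they were compared between backgrounds by an exact two-sided permutation test of mean log2(CPM + 1), 4 libraries against 4, which cannot give a p below 0.0286; with 2 against 2 the smallest p is 0.333. Of the 6 genes with any count, 0 passed a p of 0.05. Libraries tied at 0 raise the smallest p that 4 against 4 can give. Stag3 and Ddx4, each at 0 in 5 libraries, could not go below 0.143, and Stk31, at 0 in 7, could not pass in any arrangement. For these genes the outcome was fixed in advance and says nothing of a difference. The lowest p was that of Tex101 (a difference of 0.09, shMCT-1 minus scramble, exact permutation p = 0.114), followed by Ddx4 (−0.05, exact permutation p = 0.143). Without scramble + IgG replicate 2, the value for Ddx4 was −0.06 (exact permutation p = 0.0286). With all 8 libraries, in none of the 6 did the 2 backgrounds separate. Among all 9450 genes below the filter with more than 3 counts, 4.5% were higher in every shMCT-1 library than in every scramble library and 14.1% were lower. With all libraries, differences between backgrounds were not detectable in these 9 genes at this depth. Over the 4 shMCT-1 libraries together, 0 counts allow a level of up to 0.0344 CPM (3 counts), and the exact Poisson 95% interval of Tdrkh was 0.0473 to 0.196 CPM, both covering counting error only.

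The widely expressed relatives of these genes give the scale. All 8 paralogs on the list were tested, 6 were called lower and 2 higher in shMCT-1, against 33.5% and 34.4% of all those tested, and the median log2 fold change was −0.41. Per kilobase of exon, the mitotic cohesin gene Smc1a stood at 48.9 CPM per kb in scramble and 32.7 in shMCT-1, at least 7654-fold and 3842-fold above the level that 0 counts allow for Smc1b (3 counts over the 4 libraries of a background). Slc25a5, an ADP/ATP carrier of most tissues, was at least 34290-fold above the limit for Slc25a31 in scramble and 30380-fold in shMCT-1. Stag3 stood at 0.00301 CPM per kb in scramble (exact 95% interval 0.000364 to 0.0109) against 7.68 for Stag1 and 13.3 for Stag2. Ddx4 stood at 0.0114 CPM per kb in scramble (exact 95% interval 0.00312 to 0.0293) against 121 for Ddx3x. All 5 cohesin genes of the list fell: Smc1a (log2 fold change −0.55), Stag1 (−0.53), Stag2 (−0.48), Smc3 (−0.41) and Rad21 (−0.35). Ddx3x fell by 0.41 on the log2 scale, whereas Slc25a4 (0.63) and Slc25a5 (0.30) rose.

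Other germline genes were mostly at low levels as well. Of 58 genes on the lists for meiosis, the piRNA pathway and germ cells, 50 were below 1 CPM in all 8 libraries, 25 had at most 3 counts over all libraries together, and 7 were tested. Of these 7, 6 were called lower in shMCT-1 and 0 higher, against 33.5% and 34.4% of all those tested. The split depends on the filter: Sycp1 and Dnd1 passed it through their scramble libraries alone. Without a filter 4 of the 58 were called higher and 6 lower. Zcwpw1, a reader of histone marks at meiotic hotspots, went from 92.3 to 109 CPM in scramble to 28.1 to 39.1 CPM in shMCT-1 (log2 fold change −1.56, SE 0.07, edgeR adjusted p = 1.37e-07). Msh5, a meiotic MutS homolog, went from 6.31 to 8.46 CPM to 1.73 to 3.16 CPM (−1.53, SE 0.15, edgeR adjusted p = 1.33e-05). Sycp1, the transverse filament of the synaptonemal complex, went from 1.63 to 2.69 CPM to 0.319 to 0.504 CPM, given here as levels since it passed the filter only where it was high.

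The other calls in these lists were Prdm9 (−1.05), Taf4b (−0.37) and Tdrd7 (−0.19, SE 0.07, edgeR adjusted p = 0.0296). Dnd1, which was not called, stood at 0.581 to 1.16 CPM in scramble and 0.592 to 0.961 CPM in shMCT-1. It is given as levels, since it passed the filter through scramble alone. The call of Tdrd7 was lost when any 1 library other than scramble + IgG replicate 2 or shMCT-1 + anti-IL-6R replicate 2 was left out (edgeR adjusted p 0.0625 to 0.0899). By list, 3 of 26 meiosis genes, 1 of 16 piRNA genes and 3 of 16 germ cell genes were tested. Among the 26 of the 58 genes that were below the filter with more than 3 counts, 3 were higher in every shMCT-1 library than in every scramble library and 1 was lower, against 4.5% and 14.1% of all such genes. The 3, named after their values were seen, were Tdrd12 (0 counts in scramble and 28 over the shMCT-1 libraries), Piwil4 (0 and 23) and Mov10l1 (7 and 40), all of the piRNA pathway and all below 1 CPM, and the lower one was Msh4 (27 and 4). Without scramble + IgG replicate 2 the count of 3 stayed at 3.

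**Figure D4:**
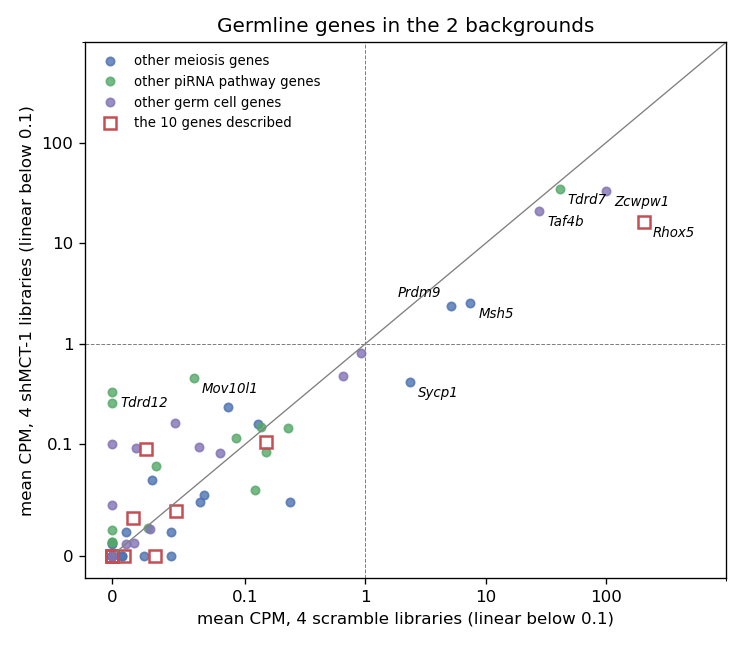
Mean CPM over 4 scramble libraries (horizontal) and 4 shMCT-1 libraries (vertical) of the 10 genes (open squares) and 58 other germline genes (circles), both axes linear below 0.1 CPM and logarithmic above, with the line of equal levels and dashed lines at 1 CPM. Most genes lie below 1 CPM on both axes, and Rhox5, Zcwpw1, Msh5, Prdm9 and Sycp1 lie below the line of equal levels.

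Within its own cluster Rhox5 stood alone with 1 exception. Of 42 annotated genes named Rhox, 8 of them pseudogenes, 2 reached 1 CPM in any library, Rhox5 and Rhox4a2. Of the other 40, 31 were at 0 in all libraries and the highest value was 0.198 CPM. Rhox4a2 had 10.1 to 15.2 CPM in scramble and 6.36 to 8.56 CPM in shMCT-1 (log2 fold change −0.59, SE 0.12, edgeR adjusted p = 0.00185). The Rhox4 genes are near-identical copies, so reads assigned to Rhox4a2 may belong to another copy.

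The genes around Rhox5 did not share the size of its change. Within 500 kb of its start 2 other genes were tested, Rhox4a2 at −414 kb and Zbtb33 at 385 kb (−0.54, SE 0.10, edgeR adjusted p = 0.000858). Within 1000 kb there were 15, of which 6 were called lower and 3 higher, against 33.5% and 34.4% of all those tested, and 6 were not called, with values from −1.10 to 0.59 and a median of −0.06. The lowest of the 15 was Mcts1 itself, which lies 796 kb from Rhox5 on the same chromosome.

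**Figure D5:**
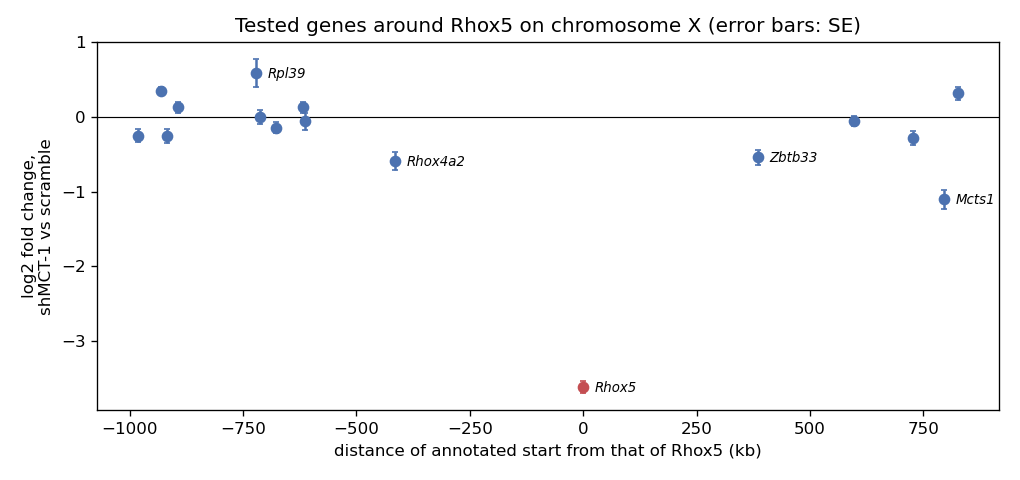
Difference of shMCT-1 from scramble as log2 fold change, averaged over both treatments, against the distance in kb of each tested gene's annotated start from that of Rhox5; error bars are SEs. Rhox5 lies at −3.62 and the 15 other genes between −1.10 and 0.59.

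The 5 tested genes whose log2 CPM followed Rhox5 most closely over the 8 libraries were Nqo1 (Pearson r = 0.9986), Nat10 (0.9984), Nrg1 (0.9984), E2f6 (0.9983) and Bhlhe41 (0.9981). The libraries form 2 separate sets by background, and 149 genes had an r above 0.99, so these values describe a shared step between the backgrounds and no relation within them. The steps differed in size: Nqo1, a quinone reductase, went from 27.2 ± 0.282 to 6.63 ± 0.411 CPM, Bhlhe41, a circadian repressor, from 89.8 ± 1.89 to 10.3 ± 0.969 CPM, and Nat10, an RNA acetyltransferase, from 157 ± 1.87 to 107 ± 1.28 CPM (SD, n = 4). Nrg1, a ligand of ERBB receptors, went from 63.5 ± 3.49 to 23.0 ± 0.637 CPM.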

How the data were processed

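RNA of 8 samples of 4T1 cells was sequenced as mRNA libraries. The authors trimmed reads with cutadapt 1.18, aligned them with STAR 2.7.0d to mm10 and GENCODE M19, and deposited RSEM estimated counts per gene, which are not scaled for depth or length; the RSEM version and strand setting are not given in the sources used here. CPM was computed from these counts and each file's total. Names, positions and exon lengths came from GENCODE M21. Counts were rounded, genes above 1 CPM in at least 2 libraries kept (12704), and edgeR 4.0.16 (R 4.3.3; TMM, quasi-likelihood, 4 group means, Benjamini-Hochberg, adjusted p under 0.05) was used, after a test on simulated counts. DESeq2 1.42.0, other filters and scalings, a replicate block and leaving out each library were alternatives. Genes below the filter were compared by exact permutation tests.

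The members and lists were chosen with earlier results of these data known. Named are the 10 genes, Mcts1, E2f6, the 2 tested genes of each list with the largest change, all genes of the paralog list, tested genes within 500 kb of Rhox5, Rhox genes at 1 CPM or more and the 5 genes most correlated with Rhox5. Others are named as examples. Replicate numbers did not pair the libraries.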

Additional observations from a re-analysis of the deposited data

Results flagged for a closer look

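The Rhox5 level of scramble + IgG replicate 2, 233 CPM, stood apart from the other 3 scramble libraries (196 to 202 CPM). Its gap to the nearest of them was 0.843 of the range of the 4, above Dixon's 95% limit for 4 values. Chance flags about 1 in 20 such groups. The same library lay farthest from the other scramble libraries over all tested genes. The part of that in the Rhox5 value was not tested, and without this library the averaged log2 fold change of Rhox5 was −3.54 against −3.62 with it.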

How the results depend on the processing

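The averaged log2 fold change of Rhox5 ranged from −3.63 to −3.60 over the alternatives with all libraries and from −3.69 to −3.54 with each library left out. Within IgG it ranged from −3.78 to −3.50 when libraries were left out. Its response to anti-IL-6R in scramble ranged from −0.25 to 0.038 and the interaction from −0.10 to 0.19, both changing sign without scramble + IgG replicate 2 (0.038 and −0.097). No alternative called Rhox5 in the antibody comparisons. The 9 germline genes did not pass the filter, so the fits that kept it say nothing of them. Without a filter, edgeR could be fitted to 6 of the 9 and 0 were called. The edgeR exact test called 10 genes of all genes for the antibody in scramble cells and 14 in shMCT-1 cells, and the fit without a filter 64 and 133, with 97 for the interaction, against 0 in each fit as reported. DESeq2 called 0, 11 and 6, and the fit without scramble + IgG replicate 1 called 14 in scramble and 8 for the interaction. Without scramble + anti-IL-6R replicate 2, 4390 genes in place of 6894 were called between backgrounds within anti-IL-6R.

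Leaving out libraries, the differences in mean log2(CPM + 1) ran from −0.0023 to 0.047 for Stag3, from −0.045 to 0.0066 for Sycp3 and from −0.061 to −0.031 for Ddx4, which passed (exact permutation p = 0.0286, the smallest p that 3 against 4 can give) only without scramble + IgG replicate 2, its 1 scramble library at 0 counts. Without a filter, 4 of the 58 other germline genes were called higher (Tdrd12, Piwil4, Mov10l1 and Dazl, the last with 9 counts in all), with edgeR's own filter 1 (Mov10l1), against 0 in the fit as reported. Without a filter, Msh4 was called lower (27 counts in scramble and 4 in shMCT-1) and Tdrd7 was no longer called. With a replicate block, Rhox5 kept its averaged value of −3.62 and 8669 genes were called against 8620. Correlations of replicate differences between groups were −0.08 to 0.106, so the numbers were not taken as pairs. Values under 3 counts per library (0.0907 to 0.151 CPM) are limited by depth.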
